A study of Mus musculus with 6 samples.

Results

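Transcripts of 10 genes known from red cells, lung epithelium and macrophages were read here. The libraries were made from sorted group 2 innate lymphoid cells (ILC2s) of the neonatal mouse lung. Which cells the transcripts came from was not tested. The genes were taken by name from the 55394 entries of the expression files, and each of the 10 symbols was found in 1 entry. Hba-a1 and Hba-a2 encode alpha globin and Hbb-bs and Hbb-bt encode adult beta globin, while Alas2 encodes the erythroid enzyme of the first step of haem synthesis. Sftpc, Sftpa1 and Sftpb encode lung surfactant proteins, Scgb1a1 encodes the secretoglobin of club cells, and Lyz2 encodes the lysozyme of myeloid cells. They were chosen by name as messages of red cells, of alveolar and airway epithelium and of macrophages, with earlier results of these data known.

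The libraries came from wild-type C57BL/6 mice (C57BL/6J in the study's methods). In the Abx group, dams drank water with ampicillin, metronidazole, neomycin and vancomycin from gestation day 10 to gestation day 14. In the Con group, dams received no antibiotics. Lung ILC2s of the newborn pups were sorted as CD45+ Lin- CD90.2+ CD25+ cells, and each SMART-seq library was made from 1000 of them, with 3 libraries in each group. SMART-seq amplifies polyadenylated RNA from few cells. The lungs were flushed and the red cells lysed before the sort, and the lineage antibodies included Ter119 (erythroid cells), CD11b and CD11c (myeloid cells). The study also measured the purity of the sorted ILC2s by flow cytometry. The age of these pups and the number of animals behind each library are not given in the sources used here, so p-values measure only the spread between these libraries.

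Haemoglobin is a tetramer of alpha-like and beta-like globin chains around haem. Red cell precursors make both chains in balance, and reticulocytes keep globin mRNA after the nucleus is lost. In the lung, type 2 cells of the alveoli secrete surfactant, in which the hydrophobic proteins B and C spread the lipid film and the collectin A binds microbes, while club cells of the airways secrete Scgb1a1. Lymphocytes are not known for making globin, surfactant or club cell secretoglobin.

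The globin genes are near copies of each other, which limits how far their separate values can be read. The coding sequences of Hba-a1 and Hba-a2 are 429 bases each in the GENCODE M21 transcripts and differ at 1 base (99.77% identity), and their transcripts share a run of 415 bases. Those of Hbb-bs and Hbb-bt are 444 bases each and differ at 1 base as well (99.77% identity), with a shared run of 430 bases. The longest run that Hba-a2 shares with Hbb-bs is 14 bases, so alpha and beta globin are distinct in sequence. The coding stretch around the differing base is printed for each gene to show how little separates them, with that base in capitals. It is coding base 381 of the alpha genes and coding base 417 of the beta genes, counted from the first base of the start codon.
Hba-a1: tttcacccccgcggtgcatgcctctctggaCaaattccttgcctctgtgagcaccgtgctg
Hba-a2: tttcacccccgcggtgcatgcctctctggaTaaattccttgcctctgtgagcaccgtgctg
Hbb-bs: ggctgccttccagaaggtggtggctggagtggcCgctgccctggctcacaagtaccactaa
Hbb-bt: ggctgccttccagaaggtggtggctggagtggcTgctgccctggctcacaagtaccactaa
The alpha stretches cover coding bases 351 to 411, and the beta stretches cover coding bases 384 to 444, the end of the coding sequence. How a read that matches both copies was assigned by the authors is not given in the sources used here. The split between the copies of a pair is therefore uncertain, and the sum of a pair is less so.

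The 100 bases before the RefSeq start of the 4 globin genes and of Alas2 (GRCm38.p6) are printed as a description of their sequence. Whether these bases bear on the levels in the libraries was not tested. Capitals mark the TATA box (letters TATAA), the CCAAT box (letters CCAAT), the CACCC box (letters CACCC) and the GATA site (letters AGATAA), each searched on both strands.
Hba-a1, chr11:32283572-32283671, + strand: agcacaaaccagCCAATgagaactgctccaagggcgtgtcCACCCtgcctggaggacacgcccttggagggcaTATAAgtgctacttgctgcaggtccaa
Hba-a2, chr11:32296392-32296491, + strand: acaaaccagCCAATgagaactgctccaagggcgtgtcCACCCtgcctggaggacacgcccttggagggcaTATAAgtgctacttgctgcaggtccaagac
Hbb-bs, chr7:103827929-103828028, - strand: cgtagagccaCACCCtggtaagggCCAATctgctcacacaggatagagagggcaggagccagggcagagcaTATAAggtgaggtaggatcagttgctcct
Hbb-bt, chr7:103813924-103814023, - strand: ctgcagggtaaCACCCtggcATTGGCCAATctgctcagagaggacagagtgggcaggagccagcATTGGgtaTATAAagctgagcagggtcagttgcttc
Alas2, chrX:150547317-150547416, + strand: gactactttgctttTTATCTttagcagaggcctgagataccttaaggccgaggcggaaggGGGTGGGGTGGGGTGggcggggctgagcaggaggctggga
The TATA box and the CCAAT box letters occur in all 4 globin windows, against 10.19% and 18.87% of the 32817 windows of the same length in the RefSeq table. The CACCC box letters occur in all 5 windows, against 27.24% of all windows. The GATA site letters occur only in the Alas2 window, as their reverse complement, against 3.593% of all windows. In Hbb-bt the CCAAT box stands on both strands in adjoining letters. The alpha windows are identical over the 97 bases that could be aligned without gaps, while the beta windows match at 73 of 99 bases. A match of letters is a description and not a binding site.

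Levels are given as FPKM, fragments scaled by transcript length and by library size, so that levels of different genes can be compared. Total FPKM per library lay between 420941 and 489262, and 7074 to 9203 genes reached 1 FPKM. Correlations of log2(FPKM + 1) were lower among the Abx libraries (0.6552 to 0.6902) than among the Con libraries (0.8052 to 0.8461), so the Abx libraries stood further from each other. Read numbers were not given, which leaves the counting error of each value unknown. Of the 17 ILC2 marker genes, 16 or 17 reached 1 FPKM in every library. Il2rg, the common gamma chain, was the most abundant of them with 1047 to 1237 FPKM. The list summed to 4344 to 4561 FPKM in Con and to 3281 to 4031 FPKM in Abx, and none of its 16 genes tested passed (limma). At an unadjusted p below 0.05, 4 of the 16 were lower in Abx and none higher, where 11% of all genes tested stood below it, 6.25% lower and 4.74% higher. The 4 were Calca, Areg, Icos and Arg1, with log2 differences, Abx minus Con, of -1.99, -1.40, -1.37 and -0.54. Of the 16, 7 had a higher and 9 a lower estimate in Abx. The defining receptor gene Il1rl1, named after its values were seen, stood at 2.94 FPKM in Con 3 and below 1 FPKM in the other libraries.

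**Figure D1:**
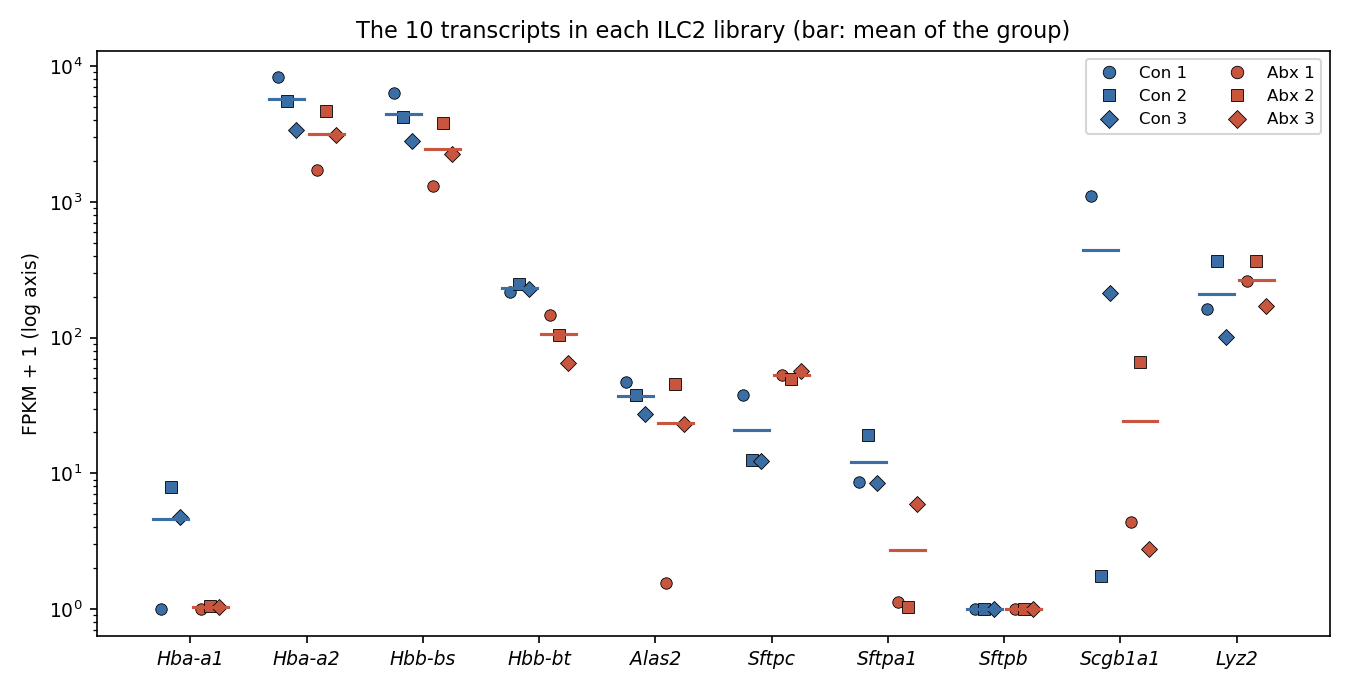
FPKM + 1 (log axis) of the 10 transcripts in each of the 3 Con (blue) and 3 Abx (red) libraries, with a bar at the group mean. Hba-a2 and Hbb-bs stood at 1312 FPKM or more in every library, Scgb1a1 ran from 0.74 to 1109 FPKM, and Sftpb was listed at 0 throughout.

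Globin mRNA was abundant in every library of sorted ILC2s. Hba-a2 (ENSMUSG00000069917, chromosome 11, 32296489 to 32297298) stood at 8270, 5561 and 3363 FPKM in Con 1, Con 2 and Con 3. In Abx 1, Abx 2 and Abx 3 it stood at 1707, 4685 and 3132 FPKM. It was the 4th most abundant gene of Con 1 and the 27th of Abx 1, and it exceeded Il2rg in all 6 libraries. Con 1 was highest and Abx 1 lowest, and the groups overlapped. The Abx mean of 3175 ± 1490 FPKM (SD, n = 3) stood beside a Con mean of 5731 ± 2458 FPKM (SD, n = 3). The difference in log2(FPKM + 1), Abx minus Con, was -0.88 (SE 0.43, 95% interval -1.88 to 0.13), with an adjusted p of 0.529 (limma).

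Hbb-bs (ENSMUSG00000052305, chromosome 7, 103826534 to 103828096) reached 6292, 4216 and 2799 FPKM in Con against 1312, 3825 and 2255 FPKM in Abx. It ranked the 6 libraries in the same order as Hba-a2, and its groups overlapped as well. The Con mean was 4436 ± 1757 FPKM and the Abx mean 2464 ± 1270 FPKM (SD, n = 3 each). The difference was -0.90 on the log2 scale (SE 0.43, 95% interval -1.90 to 0.09), with an adjusted p of 0.5 (limma).

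Hbb-bt (ENSMUSG00000073940, chromosome 7, 103812524 to 103813996), the other adult beta chain, was less abundant and ranked the libraries differently. It reached 215, 247 and 226 FPKM in Con against 147, 103 and 63.6 FPKM in Abx. All 3 Abx libraries lay below all 3 Con libraries, with Con 2 rather than Con 1 highest and Abx 3 rather than Abx 1 lowest. Groups that do not overlap were found in 17.2% of the 8718 genes tested, 8.73% with Abx below Con and 8.49% with Abx above. The difference was -1.20 (SE 0.32, 95% interval -1.95 to -0.46) with an unadjusted p of 0.00606 and an adjusted p of 0.165 (limma), so it did not pass. The exact two-sided permutation test gave p = 0.1, the smallest value that 3 libraries against 3 allow. The values of Hbb-bt rest on its uncertain split from Hbb-bs. Summed beta globin reached 6507, 4462.5 and 3025 FPKM in Con against 1459, 3929 and 2319 FPKM in Abx, with overlapping groups.

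Hba-a1 (ENSMUSG00000069919, chromosome 11, 32283511 to 32284465) had almost none of the alpha globin signal. It was listed at 0, 6.96 and 3.77 FPKM for Con 1, Con 2 and Con 3, and at 0, 0.05 and 0.04 FPKM for Abx 1, Abx 2 and Abx 3. It reached 1 FPKM in 2 libraries and was not tested across all genes, and its exact two-sided permutation p was 0.4. Its share of alpha globin ranged from 0% to 0.125%, while the coding sequences of the alpha genes differ at the single base shown above.

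Alpha and beta globin summed to 14777, 10031 and 6392 FPKM in Con against 3166, 8614 and 5450 FPKM in Abx. That was 3.29%, 2.37% and 1.52% of all FPKM in Con and 0.706%, 1.76% and 1.26% in Abx. The highest library held 4.67 times the lowest. The Con mean of 10399.8 ± 4205 FPKM was 1.81 times the Abx mean of 5743 ± 2736 FPKM (SD, n = 3 each), and the groups overlapped. In bulk samples, fewer cells of a type and less RNA per cell cannot be told apart.

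The ratio of alpha to beta globin varied far less than the globin level. The ratios 1.27, 1.25 and 1.11 in Con stood beside 1.17, 1.19 and 1.35 in Abx, with a mean of 1.22 ± 0.0837 (SD) over the 6 libraries. The exact two-sided permutation test between the groups gave p = 0.8. The share of Hbb-bt in beta globin was less even, from 2.63% in Abx 2 to 10.1% in Abx 1. That share overlapped between the groups (exact two-sided permutation p = 0.8), and it rests on the uncertain split between Hbb-bs and Hbb-bt.

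**Figure D2:**
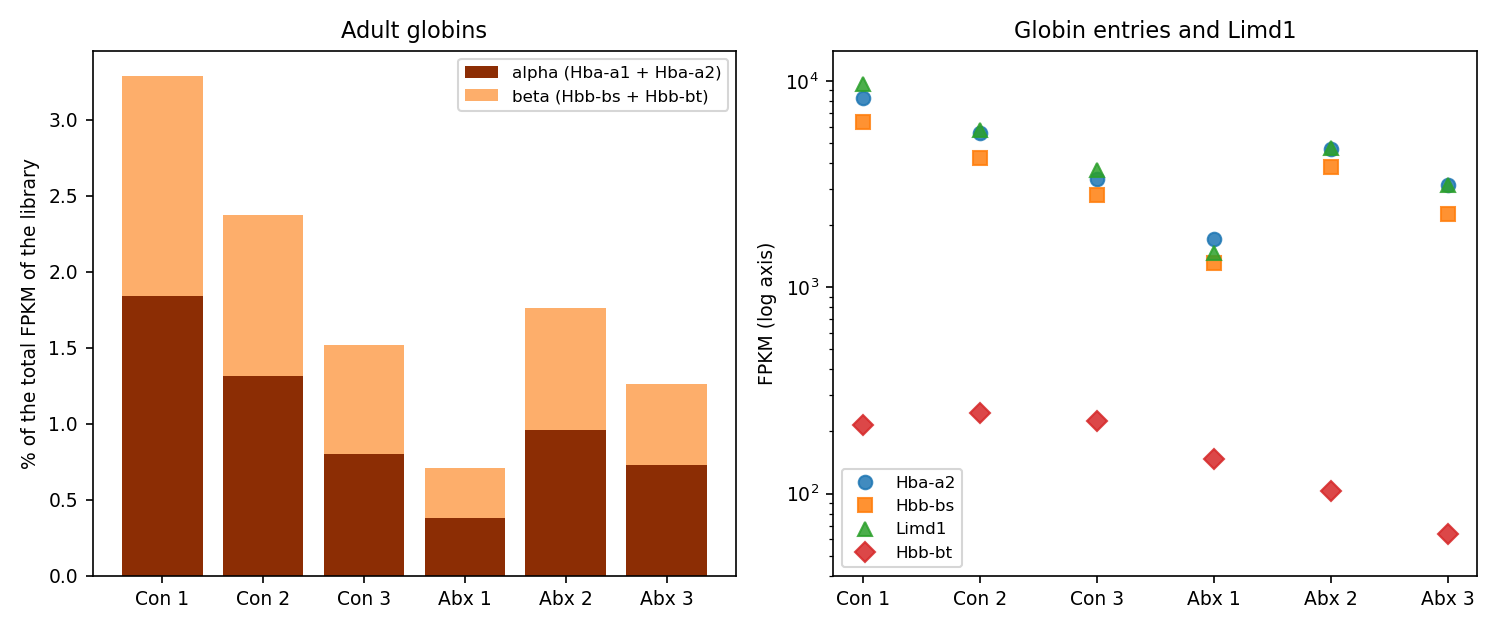
Left, summed alpha and beta globin as a percentage of the total FPKM of each library. Right, FPKM (log axis) of Hba-a2, Hbb-bs, Hbb-bt and Limd1 in each library, where Limd1 lay between 0.857 and 1.17 times Hba-a2 and Hbb-bt did not share the order of the others.

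Alas2 (ENSMUSG00000025270, chromosome X, 150547375 to 150570638) accompanied the globins in 5 of the 6 libraries. It reached 45.8, 36.9 and 26.3 FPKM in Con against 0.55, 44.5 and 22.0 FPKM in Abx. In Con its order followed that of the globin sum, and Abx 1, lowest in globin, was also lowest in Alas2. The globin sum was 194 to 323 times Alas2 in the 5 libraries and 5756 times Alas2 in Abx 1. The difference between groups was -1.63 (SE 1.15) with an adjusted p of 0.689 (limma). It was -0.17 when Abx 1 was left out, so its size rests on that library. Alas2 lies on chromosome X, and the study used both sexes. Named after their values were seen, Xist was lower in Abx (log2 difference -2.43) and the Y-linked Eif2s3y higher (3.8). Neither passed (adjusted p = 0.0911 each, limma). Whether the share of the sexes differed between the groups was not tested.

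Other erythroid genes were mostly at low levels beside the globins. Of 40 further erythroid genes, 39 were in the files, 12 were listed at 0 in all libraries and 7 more stayed below 1 FPKM throughout. The anion exchanger Slc4a1, the Rh-associated glycoprotein Rhag, the transcription factor Tal1 and the blood group protein Kel were among those at 0, as were the embryonic globins Hbb-y, Hbb-bh1 and Hba-x. Ahsp, the alpha globin chaperone, had no entry under that symbol. The transcription factors Klf1 (19 FPKM in Abx 1 alone) and Gata1 (7.3 FPKM in Con 3 alone) were picked out after their values were seen.

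The most abundant members of that list are also used outside red cells. The mitophagy receptor Bnip3l stood at 26.6 to 55.1 FPKM, and the haem synthesis enzyme Alad at 18.9 to 47.5 FPKM. Bpgm, which makes 2,3-bisphosphoglycerate, stood at 18.2 to 28.4 FPKM, with all Abx libraries above all Con libraries, and did not pass (adjusted p = 0.792, limma). Urod, another enzyme of haem synthesis, reached 28.8, 46.8 and 29.5 FPKM in Con against 58.3, 15.2 and 0.07 FPKM in Abx. Fech and Slc25a38, named after their values were seen, lay opposite to Bpgm, with all Abx libraries below all Con libraries. Their log2 differences were -1.46 and -1.75, with adjusted p of 0.542 and 0.629 (limma). Groups did not overlap in 17.2% of all genes tested. None of the 13 erythroid genes tested passed, 6 had a higher and 7 a lower estimate in Abx, and their median was -0.08, beside -0.06 for all genes. The summed level of the list was 171 to 243 FPKM, a range of 1.42 times where the globins ranged over 4.67 times.

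The surfactant transcripts were far rarer than globin, and their estimates lay in different directions. Sftpc (ENSMUSG00000022097, chromosome 14, 70520949 to 70524081), the marker of alveolar type 2 cells, stood at 36.8, 11.5 and 11.3 FPKM in Con. In Abx it stood at 52.3, 48.3 and 56.1 FPKM, close to each other and all above Con. The Con mean was 19.9 ± 14.7 FPKM and the Abx mean 52.2 ± 3.89 FPKM (SD, n = 3 each). The difference was 1.56 (SE 0.50, 95% interval 0.39 to 2.74), with an unadjusted p of 0.0155 and an adjusted p of 0.257 (limma), so it did not pass. The exact two-sided permutation p was 0.1, the smallest possible.

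Sftpa1 (ENSMUSG00000021789, chromosome 14, 41131782 to 41136452) lay the other way. It reached 7.63, 18.2 and 7.49 FPKM in Con against 0.12, 0.03 and 4.99 FPKM in Abx, again without overlap. The difference was -2.56 (SE 0.92, 95% interval -4.71 to -0.40), with an unadjusted p of 0.0257 and an adjusted p of 0.328 (limma). The pseudocount of 1 keeps such a difference small, and with a pseudocount of 0.01 it was -5.10, with an adjusted p of 0.459 (limma). That larger value rests on the values near 0 in Abx 1 and Abx 2, whose error is unknown. With the pseudocount of 1 but without Abx 3, the highest of the Abx libraries, the difference was -3.38. The ratio of Sftpc to Sftpa1 ran from 0.636 to 4.83 in Con and from 11.2 to 1610 in Abx. That separation follows from those of both genes and adds nothing to them. The ratios of Abx 1 and Abx 2 divide by Sftpa1 values near 0, so their size is unreliable.

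Sftpb (ENSMUSG00000056370, chromosome 6, 72304610 to 72314371) was listed at 0 in all 6 libraries, although type 2 cells express it together with Sftpc. With no counts, the level that such a 0 allows is unknown. The 3 surfactant genes summed to 44.5, 29.7 and 18.8 FPKM in Con against 52.4, 48.3 and 61.1 FPKM in Abx, all Abx libraries above all Con libraries, since Sftpc made up nearly all of the sum in Abx.

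Further type 2 cell genes did not follow Sftpc. Of 18 such genes, 4 were listed at 0 in all libraries (the phosphate transporter Slc34a2, the lineage factor Nkx2-1, Hc and Sfta2), and 6 more stayed below 1 FPKM. Napsa, the protease that processes surfactant protein B, was the most abundant with 11.8, 21.7 and 4.93 FPKM in Con against 0.14, 9.92 and 0 FPKM in Abx. It was the 1 gene of the list that could be tested, and it did not pass (log2 difference -2.37, SE 1.12, adjusted p = 0.497, limma). The list summed to 19.1, 34.8 and 19.3 FPKM in Con against 6.19, 17.9 and 0.3 FPKM in Abx, with all Abx libraries below all Con libraries. Its other leading genes were S100g with at most 8.03 FPKM, Lpcat1 with at most 5.44 FPKM and Lyz1 with at most 7.95 FPKM.

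Scgb1a1 (ENSMUSG00000024653, chromosome 19, 9083636 to 9087958) was the most uneven of the 8 transcripts tested. It reached 1109, 0.74 and 212 FPKM in Con 1, Con 2 and Con 3 against 3.39, 65.3 and 1.76 FPKM in Abx 1, Abx 2 and Abx 3. Con held both the highest and the lowest library, and the groups overlapped. The difference was -3.0 (SE 2.30, 95% interval -8.35 to 2.35) with an adjusted p of 0.708 (limma). It was -1.05 without Con 1 and -5.71 without Con 2.

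Con 1 was also the library in which other airway genes appeared. The secretoglobin Scgb3a2 stood at 111, 0.27 and 2.92 FPKM in Con against 0.18, 0.09 and 0.17 FPKM in Abx. Scgb3a1 (61.1 FPKM), the antimicrobial Bpifb1 (7.41 FPKM) and the club cell oxidase Cyp2f2 (6.23 FPKM, named after its value was seen) were listed in Con 1 alone. Cbr2, a carbonyl reductase of club cells, stood at 12.2 FPKM in Con 1 and at 0.5 FPKM or less elsewhere. In all, 5 of the 13 airway genes in the files reached 1 FPKM in Con 1, 1 did in Con 3 and none in the other 4 libraries.

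The remaining 8 airway genes were listed at 0 throughout, among them Foxj1, the factor of ciliated cells, and Bpifa1. Tppp3 had no entry under that symbol, and none of the airway list could be tested. The list summed to 198, 0.4 and 3 FPKM in Con against 0.68, 0.31 and 0.5 FPKM in Abx. Con 3, with 212 FPKM of Scgb1a1, held 2.92 FPKM of Scgb3a2, and Abx 2, with 65.3 FPKM of Scgb1a1, held 0.09 FPKM. The ratio of the secretoglobins Scgb1a1 and Scgb3a2 therefore ran from 2.74 in Con 2 to 726 in Abx 2. In the 10 general epithelial genes, Krt8 (7.74 FPKM) and Krt19 (3.62 FPKM) reached 1 FPKM in Con 1 alone, Cldn4 reached it in Con 2 alone (10.8 FPKM), and 4 were listed at 0 in all libraries. Epcam, an adhesion molecule of epithelia, stood at 4.48, 12.2 and 17.6 FPKM in Con against 0, 27.8 and 0 FPKM in Abx, an order that neither Sftpc nor Scgb1a1 shared.

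**Figure D3:**
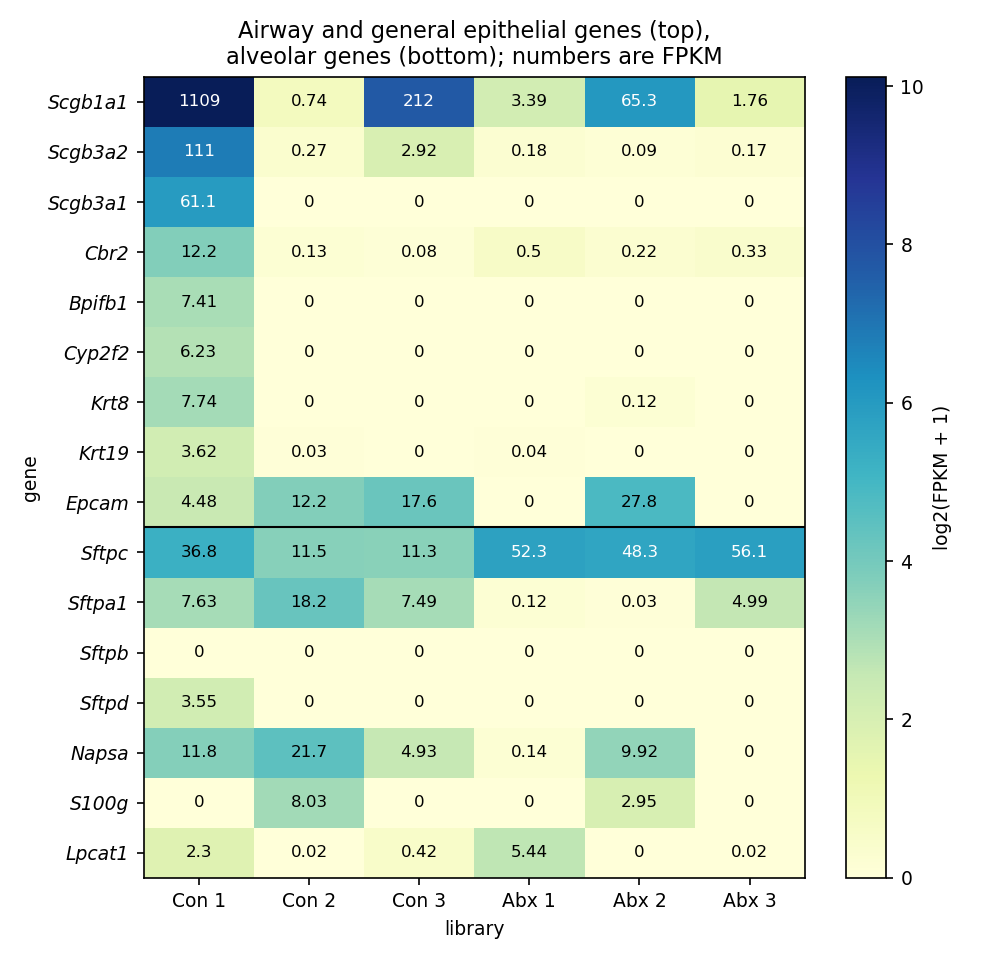
Scgb1a1, Sftpc, Sftpa1 and Sftpb with further airway, general epithelial and alveolar genes in each library (colour, log2(FPKM + 1), printed numbers, FPKM). The airway genes stood together in Con 1, while Sftpc was highest in the Abx libraries and Sftpb was listed at 0.

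The 4 epithelial transcripts together summed to 1154, 30.4 and 231 FPKM in Con against 55.8, 114 and 62.8 FPKM in Abx. The Con mean was 6.09 times the Abx mean, with overlapping groups. Without Con 1 the ratio was 1.69, so 1 library carried most of that difference.

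Lyz2 (ENSMUSG00000069516, chromosome 10, 117277331 to 117282321), the lysozyme of macrophages and neutrophils that mouse type 2 cells also express, reached 161, 363 and 101 FPKM in Con against 259, 368 and 170 FPKM in Abx. Con 2 and Abx 2 were highest and the groups overlapped. The Con mean was 208 ± 137 FPKM and the Abx mean 266 ± 99.2 FPKM (SD, n = 3 each). The difference was 0.49 (SE 0.49, 95% interval -0.65 to 1.62), with an adjusted p of 0.778 (limma). Its coding sequence differs from that of Lyz1 at 22 of 447 bases (95.08% identity), a wider gap than in the globin pairs.

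Macrophage genes were present in part. The list of 32 macrophage and monocyte genes summed to 420 to 793 FPKM per library, with overlapping groups. The adaptor Tyrobp (27.0 to 210 FPKM), the protease Ctss (35.5 to 157 FPKM), the lectin Lgals3 (52.2 to 118 FPKM) and the lipid carrier Apoe (21.4 to 152 FPKM) led the list, and cells outside the macrophage lineage express them as well. Markers closer to macrophages were mixed, and the ones given here were named after their values were seen. The complement genes C1qa, C1qb and C1qc reached 24.0, 32.4 and 22.1 FPKM in their highest libraries. Cd14 reached 39.8 FPKM, Cd68 30.2 FPKM and Fcgr3 15.1 FPKM. Each of these genes stood near or below 1 FPKM in some libraries. For C1qa and C1qb those were Con 2 and Abx 1, and both stood at 11.55 FPKM or more elsewhere. Cd14 stood at 26.0 FPKM or more in Con 2, Con 3 and Abx 1 and below 1 FPKM elsewhere. Adgre1 stood at 4.86 FPKM in Con 1 and 1.89 FPKM in Con 3, and Itgax at 2.38 FPKM in Con 1, with both below 1 FPKM elsewhere. The receptors Csf1r, Marco, Mrc1, Itgam (CD11b) and Siglecf stayed at 0.36 FPKM or less in all 6 libraries. None of the 15 genes tested passed, 7 had a higher and 8 a lower estimate in Abx, and their median was -0.01.

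The lists of the other cell types had lower sums than the macrophage list in every library. The neutrophil list summed to 0 to 75.3 FPKM, of which S100a8 made up 75 FPKM in Abx 1. The platelet list summed to 0.02 to 41.4 FPKM, highest in Abx 2 with 25.3 FPKM of Pf4. The alveolar type 1 list summed to 2.41 to 17.7 FPKM, the endothelial list to 7.38 to 21.2 FPKM and the fibroblast list to 3.13 to 13.6 FPKM. In the fibroblast list all Abx libraries (4.79 to 13.6 FPKM) lay above all Con libraries (3.13 to 3.92 FPKM). Of its 12 genes, 8 stayed below 1 FPKM in all libraries, and Mgp led with 0.95 to 4.56 FPKM. Below 1 FPKM throughout were also 9 of the 12 endothelial and 5 of the 10 alveolar type 1 genes. Groups did not overlap in 17.2% of single genes tested, and no such share was worked out for sums. No gene of these lists passed the test. Their part in the values of the 10 transcripts was not tested.

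**Figure D4:**
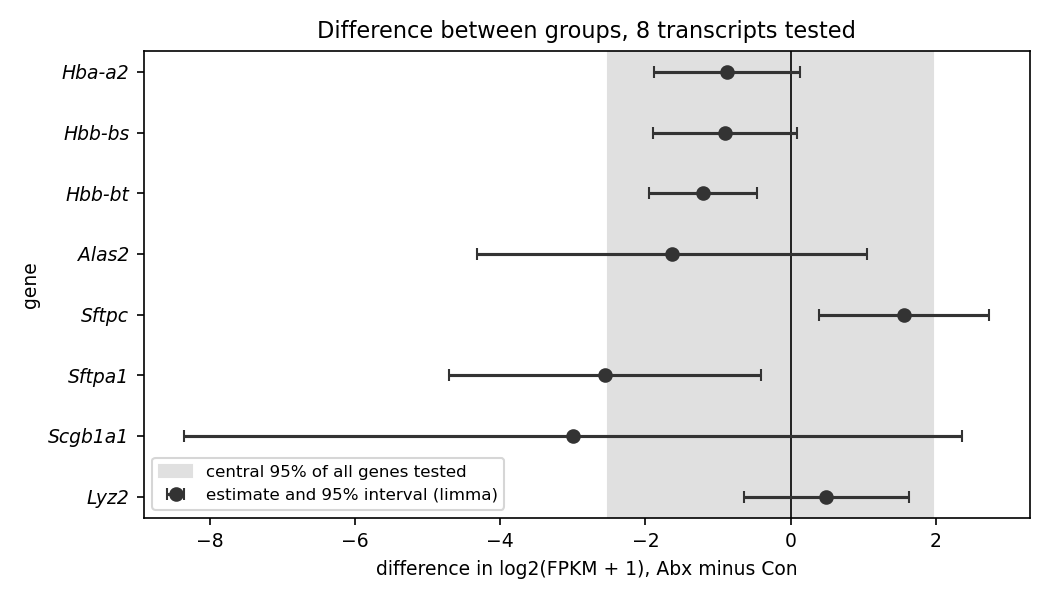
Differences in log2(FPKM + 1), Abx minus Con, for the 8 transcripts tested, with 95% intervals from limma. The shaded band from -2.52 to 1.96 holds the central 95% of all genes tested, and the intervals of Hbb-bt, Sftpc and Sftpa1 leave out 0 before adjustment.

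Of the 10 transcripts, 8 passed the filter on low values and were tested between the groups. None passed both thresholds, a fold change above 2 with an adjusted p below 0.05 (limma). Of all genes tested 0.0574% passed (5 genes), 0.0459% higher and 0.0115% lower in Abx. Hbb-bt and Sftpa1 (lower in Abx) and Sftpc (higher in Abx) had an unadjusted p below 0.05 with a fold change above 2, as did 9.34% of all genes, 5.72% lower and 3.61% higher in Abx. The groups did not overlap in the same 3 transcripts, where 17.2% of all genes had groups that did not overlap. Estimates were lower in Abx for 6 and higher for 2 of the 8, with a median of -1.05, beside -0.06 for all genes, 53% of which had a lower estimate. Globin entries make up 3 of these 6 and are not independent of each other, and Hbb-bt rests on its uncertain split from Hbb-bs.

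Among all genes, Scgb1a1 had one of the lowest estimates, with 0.952% of genes below it, and Sftpa1 followed with 2.27% of genes below it. Sftpc lay at the other end, with 95.5% of genes below it. Hba-a2 and Hbb-bs lay nearer the middle, with 21.6% and 20.9% of genes below them. The interval of Scgb1a1 was the widest of the 8, so its place in that order carries little weight.

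Genes nearest in pattern were sought among the 12951 genes with at least 1 FPKM in 1 library, by the root-mean-square difference of their centred log2(FPKM + 1) values over the 6 libraries. For Hba-a1 they were Zfp516 (0.098), Mcm8 (0.107) and Extl3 (0.109), genes listed near 0 outside Con 2 and Con 3. For Sftpc they were Lef1os1 (0.195), Cnp (0.282) and Cbx1 (0.292), none of them a gene of the lung epithelial lists. Cnp, which encodes a phosphodiesterase best known from myelin, reached 25.1, 7.67 and 12.9 FPKM in Con against 40.5, 36.5 and 33.8 FPKM in Abx.

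The search was repeated for Hba-a2 and Scgb1a1 after their values were seen. Nearest to Hba-a2 was Hbb-bs (0.07), and next came Limd1 (0.137) and Map3k1 (0.151). Limd1 (ENSMUSG00000025239, chromosome 9, 123478706 to 123521552), which encodes a LIM domain adaptor protein, was listed at 9645, 5812 and 3691 FPKM for Con 1, Con 2 and Con 3. For Abx 1, Abx 2 and Abx 3 it was listed at 1463, 4755 and 3126 FPKM, so its level as well as its pattern was near that of Hba-a2, from 0.857 to 1.17 times it. The longest run of bases that its transcripts share with those of Hba-a2 is 12. The reads behind these values were not checked, so such a level of Limd1 RNA is not established. Map3k1, by contrast, stood at 0.16 to 5.26 FPKM. Nothing came as near to Scgb1a1, where Ap5s1 was closest at 1.14.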

How the data were processed

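The deposited values are FPKM per gene, which the authors made by trimming reads (Cutadapt), mapping them (HISAT2) and assembling transcripts (StringTie). Their methods name a human annotation, while the entries carry mouse identifiers, and the labels also name Bowtie 0.12.2 without its role. Replicates were not pooled, and no further scaling between libraries was applied. Strandedness, multi-mapping rules and read numbers are not given in the sources used here, so depth sets no error bar, and a value of 0 may be a failed estimate.

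The 6 libraries were grouped by their titles. The 8718 of 55394 genes that reached 1 FPKM in 3 or more libraries were compared on log2(FPKM + 1) with limma 3.58.1 (R 4.3.3), lmFit and eBayes with a trend, two-sided, with Benjamini-Hochberg adjustment over all genes tested. The pseudocount of 1 understates differences of low genes. A call needed a fold change above 2 together with an adjusted p below 0.05. For single values, exact two-sided permutation tests over the libraries were used (smallest p 0.1). The authors' DESeq2 comparison needs counts and was not repeated. The fit was also run on simulated data with normal noise and large changes. That setting did not mimic genes listed near 0 in some libraries or smaller differences.

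All 10 transcripts were named, with up to 4 genes of each marker list by mean FPKM, marker genes listed at 0, and the 3 genes nearest in pattern to Hba-a1 and to Sftpc. A few further markers were named after their values were seen, as said beside them. The marker lists cover erythroid cells, alveolar type 2 and type 1 cells, airway and general epithelium, macrophages, neutrophils, platelets, endothelium, fibroblasts and ILC2s. The transcripts and the lists were chosen with earlier results of these data known. Alternatives were other pseudocounts, scalings, filters and call rules, fits without 1 library, and a fit with a replicate block. Leaving libraries out of the summed levels was added after seeing the data.

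Gene positions and coding sequences come from GENCODE M21 (GRCm38), and promoter windows from RefSeq (GRCm38.p6), where 8 of the 10 symbols matched. Tables were made in Python 3.11.15 (pandas 2.3.3, numpy 2.4.6).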

Additional observations from a re-analysis of the deposited data

How the results depend on the processing

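None of the 8 transcripts tested passed both thresholds under the 14 other pseudocounts, scalings, filters, left-out libraries and block, and all 8 kept the direction of their estimate. When p was left unadjusted, Hbb-bt, Sftpa1 and Sftpc passed. Over these alternatives the adjusted p (limma) lay between 0.124 and 0.615 for Hbb-bt, 0.213 and 0.637 for Sftpc and 0.172 and 0.706 for Sftpa1. Leaving out Abx 1 moved the difference of Hba-a2 to -0.49 and of Hbb-bs to -0.52, and leaving out Con 3 moved that of Lyz2 to 0.07. The calls over all genes (4 higher and 1 lower in Abx) were less stable. Pseudocounts of 0.1 and 0.01, centring on the median and no filter on low values each gave 0 higher and 0 lower. Quantile normalization and a mean of at least 5 FPKM each gave 5 higher and 2 lower, and the unadjusted p gave 315 higher and 499 lower. Leaving out 1 library in turn gave 0 higher and 0 to 2 lower, with 2 lower without Abx 2 alone. The cause was not tested. The replicate numbers did not pair the libraries (correlations of same-numbered deviations -0.0199, -0.0286 and 0.0097), and the replicate block gave 0 higher and 0 lower. The ratio of Con to Abx means was 1.43 to 2.41 for globin and 0.449 to 0.687 for surfactant with 1 library left out, and 1.69 to 8.94 for the 4 epithelial transcripts, where the lowest value is that without Con 1.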

Other observations

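No single library was highest for every cell type list. Con 1 was highest for globin (14777 FPKM) and for the airway list (198 FPKM), Con 2 for the further type 2 cell genes (34.8 FPKM), and Abx 1 for the neutrophil list (75.3 FPKM), the further erythroid genes (243 FPKM, in the library lowest in globin), the alveolar type 1 list (17.7 FPKM) and the fibroblast list (13.6 FPKM). Abx 2 was highest for the macrophage list (793 FPKM), the general epithelial list (27.9 FPKM) and the platelet list (41.4 FPKM), in which Pf4 stood at 25.3 FPKM and Ppbp at 16.1 FPKM. Abx 3 was highest for Sftpc (56.1 FPKM) and for the endothelial list (21.2 FPKM). It was listed at 0 for every neutrophil gene and every general epithelial gene. Some of these sums came largely from 1 gene and do not measure the amount of a cell type. Pecam1 held 20.8 FPKM of the endothelial sum in Abx 3, and Epcam held 27.8 FPKM of the general epithelial sum in Abx 2. In Abx 1, Rtkn2 held 9.73 FPKM of the alveolar type 1 sum. Per FPKM of Il2rg, globin still ranged from 2.94 in Abx 1 to 11.9 in Con 1, with overlapping groups (exact two-sided permutation p = 0.2).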
